A study of Mus musculus with 6 samples.

Results

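The genes described here encode the enzymes and partner proteins that place or remove N6-methyladenosine (m6A) on RNA. The 10 members were taken by symbol from the deposited gene table: Mettl3, Mettl14, Wtap, Virma, Zc3h13, Rbm15 and Cbll1 of the methyltransferase complex, Mettl16, and the demethylase genes Fto and Alkbh5. All 10 were found among the 55401 genes of the table, and all 10 were among the 17387 genes with enough counts to be tested. They were measured by sequencing of polyadenylated RNA in 6 mouse libraries, with 18058551 to 20156067 counts per library.

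The iNSC libraries (n = 3) came from cells that the submitters call neural stem cell-like. These were made from male spermatogonial stem cells by transdifferentiation for 6 days. For this the cells were set on laminin and given retinoic acid at 1 µM for 24 h in the stem cell medium. A second medium followed, which contained bFGF at 20 ng/mL, 1% serum, albumin, insulin, N2, B27 and 10 µM SB431542, a blocker of TGF-beta and activin type I receptors. The SSC libraries (n = 3) came from the starting population, spermatogonial stem cells of the testis, labelled as 6-day-old and male. These germline stem cells sustain sperm production. They grew on STO feeder fibroblasts with 10% serum, LIF at 10 ng/mL, EGF at 20 ng/mL, bFGF at 10 ng/mL and GDNF at 20 ng/mL, beside insulin, transferrin, putrescine and progesterone. STO cells are mouse cells too, so their RNA cannot be told apart from that of the stem cells by sequence. The groups therefore differ in substrate, serum and signals as well as in cell state, and these cannot be told apart. Groups follow the sample titles, since the cell type label names the opposite group in all 6 samples.

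The cell labels were compared with marker genes. The summed level of 7 germ cell genes was 17.9 to 22.8 FPKM in iNSCs and 634 to 749 FPKM in SSCs (FPKM, the count scaled to exonic length and library total). All 7 fell, and Nanos2 was at 0 counts in the iNSC libraries, so the titles and the germ cell genes go together. Of 8 listed neural stem cell genes 5 could be tested: Nes rose (log2 3.19), and the other 4, Sox2, Pax6, Msi1 and Hes5, fell. Pax6 was at 0.02 to 0.12 FPKM in all libraries. Sox1 and Hes5 had 0 counts in all iNSC libraries. Most tested genes of this list thus did not go with the neural stem cell name. Simple epithelium genes summed to 2806 to 3346 FPKM in iNSCs and 152 to 251 FPKM in SSCs. Of these 7 genes 6 rose and 0 fell. Epcam, not called, had 91.7 to 110 FPKM in iNSCs and 127 to 206 FPKM in SSCs, where it held most of the sum. Sertoli cell genes summed to 685 to 880 FPKM in iNSCs and 57.7 to 324 FPKM in SSCs. Most of the iNSC sum was Clu, at 547 to 750 FPKM in iNSCs and 44.2 to 280 FPKM in SSCs. Of 8 listed Sertoli cell genes 6 could be tested. Of these 5 rose, namely Sox9, Wt1, Gata4, Clu and Cst12, and Rhox5 fell (log2 -2.64). The fall of Rhox5 rests on 0 to 6 counts in iNSCs and 11 to 31 counts in SSCs. Amh and Cst9 had too few counts to be tested. Leukocyte genes summed to 12.3 to 15.1 FPKM in iNSCs and 10.8 to 39.1 FPKM in SSCs. SSCs replicate 3 stood apart in the sums of stromal genes. Of 8 fibroblast and feeder genes, 4 rose and 1 fell. They summed to 114 to 162 FPKM in iNSCs, and to 418, 359.9 and 51.9 FPKM in SSCs replicates 1, 2 and 3. Among SSC libraries, Col1a1, Col1a2, Col3a1, Postn and Thy1 were lowest in replicate 3. By contrast Dcn (1.68, 0.23 and 2.91 FPKM in SSCs replicates 1, 2 and 3) and Pdgfra (5.16, 4.19 and 5.27 FPKM) were highest there. Lum had only 4, 1 and 4 counts in SSCs replicates 1, 2 and 3, too few to order them. Smooth muscle genes summed to 252 to 300.3 FPKM in iNSCs, and to 524, 449 and 23.6 FPKM in SSCs replicates 1, 2 and 3. In such bulk samples, fewer cells of a type and less RNA per cell cannot be told apart.

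m6A is the most abundant internal modification of messenger RNA. A nuclear complex writes it: METTL3 carries the catalytic site, METTL14 holds the RNA and stabilises METTL3, and WTAP, VIRMA, ZC3H13, RBM15 and CBLL1 place the pair in the nucleus and on its substrates. METTL16 is a separate methyltransferase for the U6 spliceosomal RNA and for hairpins of the Mat2a messenger RNA, and FTO and ALKBH5 are dioxygenases that remove the mark with iron and 2-oxoglutarate. In mice, loss of Mettl3 or Mettl14 in germ cells depletes spermatogonial stem cells, and loss of Alkbh5 impairs spermatogenesis. Transcript levels measure neither the m6A mark nor the proteins.

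Most m6A writer genes were lower in iNSCs, and 6 of the 7 genes of the methyltransferase complex fell, together with Mettl16 and Alkbh5. Of the 10 members, 5 fell by at least 1 log2 unit, namely Mettl16, Rbm15, Cbll1, Mettl14 and Mettl3 (edgeR quasi-likelihood test, adjusted p under 0.05 over all genes tested). Among all genes tested, 27.6% fell by that rule. Without a size rule 8 members fell, the 5 above and Zc3h13, Alkbh5 and Wtap, against 38.3% of all genes tested. "Fell" and "rose" are used below for an adjusted p under 0.05, whatever the size. Members that rose numbered 0 with edgeR, also 0 at an unadjusted p under 0.05 and 0 with DESeq2. By comparison, 35.6% of all genes tested rose, and 25.7% of all genes tested rose by at least 1 log2 unit. In FPKM, 9 members were lower in every iNSC library than in every SSC library, as were 46.4% of all genes tested. The median log2 difference, iNSCs minus SSCs, was -0.99 over the members and -0.05 over all genes tested.

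**Figure D1:**
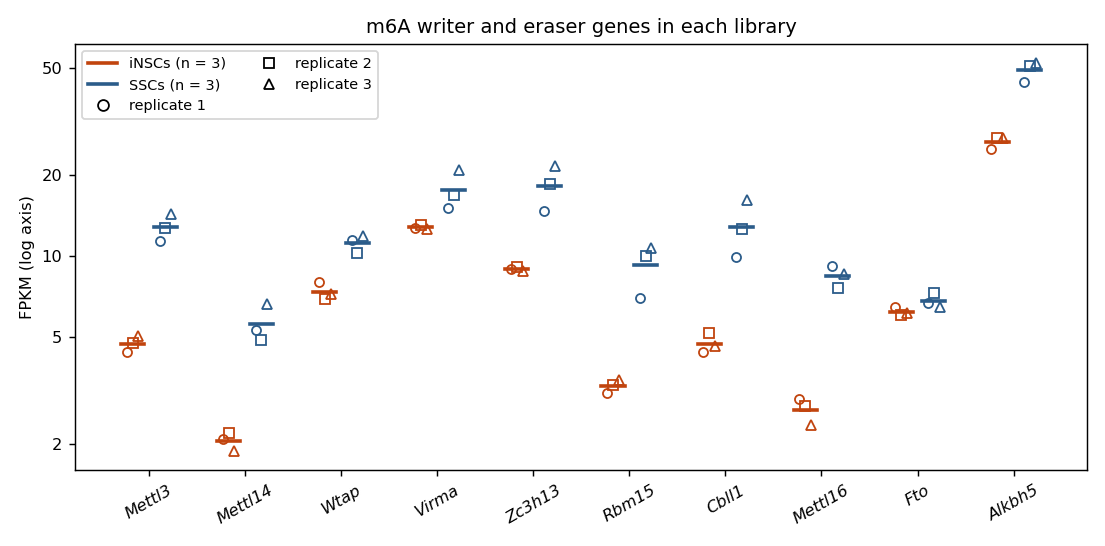
FPKM on a log axis of the 10 m6A writer and eraser genes in each library. Symbols are single libraries (circle, square and triangle for replicates 1, 2 and 3), short lines are group means, iNSCs are orange and SSCs blue (n = 3 each). For 9 of the 10 genes all iNSC libraries lie below all SSC libraries, and Fto (6.22 FPKM in iNSCs and 6.83 FPKM in SSCs on average) is the exception.

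The promoter windows of 4 of the 5 members that fell by at least 1 log2 unit are printed beside that of Fto, which was not called. Mettl14, the remaining member of the 5, had no window. The windows run from 250 bases before to 50 bases after the annotated start (RefSeq, build GRCm38.p6), and 8 of the 10 members had such an entry. Capitals mark 3 motifs, searched on both strands: CCGGAA, the core bound by ETS factors, TCTCGCG, a stretch of the CGCG element bound by BANP, and AANATGGCG, the core bound by YY1. The motifs were chosen after the sequences were seen, and matches of different motifs do not overlap in these windows.
Mettl3 (chr14:52305075-52305374, minus strand): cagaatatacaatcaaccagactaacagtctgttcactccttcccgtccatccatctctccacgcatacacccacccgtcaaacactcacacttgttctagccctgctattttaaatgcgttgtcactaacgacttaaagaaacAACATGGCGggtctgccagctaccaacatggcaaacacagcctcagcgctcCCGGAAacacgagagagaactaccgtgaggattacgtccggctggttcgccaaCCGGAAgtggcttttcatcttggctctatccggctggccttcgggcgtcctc
Mettl16 (chr11:74770613-74770912, plus strand): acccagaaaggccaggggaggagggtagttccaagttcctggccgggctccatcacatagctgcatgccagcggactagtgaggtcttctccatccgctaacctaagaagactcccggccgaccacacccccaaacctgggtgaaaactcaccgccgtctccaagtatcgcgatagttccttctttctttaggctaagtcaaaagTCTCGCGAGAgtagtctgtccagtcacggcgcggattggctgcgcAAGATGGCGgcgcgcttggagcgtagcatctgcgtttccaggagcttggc
Rbm15 (chr3:107333240-107333539, minus strand): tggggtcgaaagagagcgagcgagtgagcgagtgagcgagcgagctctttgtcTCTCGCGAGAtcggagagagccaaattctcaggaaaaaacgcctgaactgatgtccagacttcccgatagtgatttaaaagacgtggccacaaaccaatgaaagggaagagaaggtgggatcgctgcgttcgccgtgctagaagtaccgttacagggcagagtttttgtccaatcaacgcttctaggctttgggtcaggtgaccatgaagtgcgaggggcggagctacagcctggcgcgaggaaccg
Cbll1 (chr12:31499567-31499866, minus strand): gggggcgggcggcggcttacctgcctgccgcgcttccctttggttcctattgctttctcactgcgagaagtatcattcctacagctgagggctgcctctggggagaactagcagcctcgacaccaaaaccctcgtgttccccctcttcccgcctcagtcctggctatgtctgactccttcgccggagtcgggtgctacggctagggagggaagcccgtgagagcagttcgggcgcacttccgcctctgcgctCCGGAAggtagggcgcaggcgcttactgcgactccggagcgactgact
Fto (chr8:91313275-91313574, plus strand): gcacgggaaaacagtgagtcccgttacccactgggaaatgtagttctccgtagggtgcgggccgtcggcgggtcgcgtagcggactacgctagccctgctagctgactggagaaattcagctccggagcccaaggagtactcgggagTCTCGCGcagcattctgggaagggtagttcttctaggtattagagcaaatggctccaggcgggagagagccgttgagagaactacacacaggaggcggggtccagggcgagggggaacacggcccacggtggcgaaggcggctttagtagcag
The ETS core was found in 4 of the 8 members with a window (Mettl3, Wtap, Zc3h13 and Cbll1), and in 16.7% of the 27025 genes with such windows. Mettl3 held 2 copies. TCTCGCG was found in Rbm15, Mettl16 and Fto, and in 2.92% of all genes with windows. Rbm15 and Mettl16 each held it on both strands, overlapping itself. AANATGGCG was found in Mettl3 and Mettl16, and in 2.76% of all genes with windows. Fto, which was not called, shares TCTCGCG with Rbm15 and Mettl16, which fell. Of 3 further motifs searched, not marked by capitals, the GC box GGGCGG was found in 5 of the 8 members and in 38.2% of genes with windows. CCAAT was found in 4 of the 8 members and in 41.1% of genes with windows, and TATAAA in 0 of the 8 members and in 15.7% of genes with windows. The printed windows had a GC content of 52.0% (Mettl3) to 63.3% (Cbll1), with 60.7% for Fto, against a median of 52.7% over all windows. They held 17 (Mettl3) to 24 (Cbll1) CG dinucleotides, with 23 for Fto, against a median of 7 over all windows. Each of the 3 motifs in capitals contains CG, so the shares over all genes are not a like background. A match describes the letters in the window and is no evidence of binding.

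Mettl3 (ENSMUSG00000022160, chromosome 14, 52294841 to 52305128, minus strand, GRCm38), the catalytic subunit, had 4.38, 4.74 and 5.06 FPKM in iNSCs replicates 1, 2 and 3, against 11.4, 12.7 and 14.3 FPKM in SSCs replicates 1, 2 and 3. The groups did not overlap. The log2 difference was -1.19 (SE 0.15, 95% interval -1.53 to -0.85, edgeR adjusted p = 0.000247), which puts the scaled level in iNSCs at 43.9% of that in SSCs. Mettl3 shares 933 of its exonic bases (18.4%) with Tox4 on the opposite strand, and the sources used here do not give whether strand was used in counting. Tox4 had 1649 to 1827 counts in iNSCs and 1565 to 1840 counts in SSCs, and its groups overlapped. Cbll1 shares 704 exonic bases with the antisense gene Gm29542, which had 0 counts in all libraries.

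Mettl14 (chromosome 3, 123368297 to 123386108, minus strand), the RNA-binding partner of METTL3, had the lowest mean FPKM of all members in both groups. It had 2.09, 2.20 and 1.89 FPKM in iNSCs replicates 1 to 3, against 5.32, 4.86 and 6.62 FPKM in SSCs replicates 1 to 3. These FPKM rest on 283 to 319 counts in iNSCs and 651 to 919 counts in SSCs. Its log2 difference of -1.19 (SE 0.17, 95% interval -1.59 to -0.80, edgeR adjusted p = 0.000500) was nearly that of Mettl3. The FPKM ratio of Mettl14 to Mettl3 within a library was 0.438 ± 0.0565 in iNSCs and 0.437 ± 0.0481 in SSCs (SD, n = 3 each). That ratio does not depend on how libraries are scaled, and the groups overlapped (two-sided exact permutation test, p = 0.90). With 3 libraries a group, such a test cannot give a p below 0.10.

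Rbm15 (chromosome 3, 107325421 to 107333673, minus strand), an RNA-binding protein that brings the complex to its substrates, had 3.09, 3.33 and 3.46 FPKM in iNSCs replicates 1 to 3, against 6.97, 9.97 and 10.7 FPKM in SSCs replicates 1 to 3. The groups did not overlap, and the log2 difference was -1.24 (SE 0.20, edgeR adjusted p = 0.000868). Cbll1 (chromosome 12, 31484829 to 31499616, minus strand), the E3 ubiquitin ligase also known as HAKAI, had 4.38, 5.18 and 4.62 FPKM in iNSCs, against 9.87, 12.6 and 16.1 FPKM in SSCs. Here SSCs replicate 3 was high and replicate 1 low, and the log2 difference was -1.20 (SE 0.21, edgeR adjusted p = 0.00158). Without SSCs replicate 3 it was -0.98, just under 1 log2 unit.

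Zc3h13 (chromosome 14, 75284373 to 75344426, plus strand), a zinc finger protein that anchors the complex in the nucleus, had 8.92, 9.13 and 8.81 FPKM in iNSCs, against 14.7, 18.5 and 21.5 FPKM in SSCs (log2 -0.78, SE 0.17, edgeR adjusted p = 0.00392). Wtap (chromosome 17, 12966796 to 12994169, minus strand), the adaptor that joins METTL3 and METTL14 to the other subunits, had 7.98, 6.92 and 7.21 FPKM in iNSCs, against 11.4, 10.2 and 11.9 FPKM in SSCs. Both genes were lower in every iNSC library. For Wtap the log2 difference was -0.35 (SE 0.12, 95% interval -0.62 to -0.08, edgeR adjusted p = 0.0265). This call was lost when any iNSC library was left out, with an edgeR adjusted p of 0.0604 without iNSCs replicate 1, 0.152 without replicate 2 and 0.116 without replicate 3.

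Virma (chromosome 4, 11485958 to 11550684, plus strand), the large scaffold of the complex, was not called. It had 12.7, 13.1 and 12.6 FPKM in iNSCs, against 15.1, 16.8 and 20.8 FPKM in SSCs. The FPKM values did not overlap, but after TMM scaling, which adjusts libraries for their composition, the groups did. The log2 difference was -0.22 (SE 0.15, 95% interval -0.58 to 0.14, edgeR adjusted p = 0.233). Library totals in place of TMM moved the log2 difference of all genes tested by a median of -0.25, and Virma was then at -0.46 (edgeR adjusted p = 0.0136). Without SSCs replicate 1, Virma was called at -0.33 (edgeR adjusted p = 0.0390). Its range of adjusted p over all alternatives was 0.0136 to 0.610.

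The shares of the complex's transcripts are given as a description, with no test. The summed FPKM of the 7 writer complex genes was 43.5, 44.6 and 43.6 in iNSCs replicates 1 to 3, against 74.8, 85.7 and 102 in SSCs replicates 1 to 3. Virma held 29.1 ± 0.248% of that sum in iNSCs and 20.1 ± 0.397% in SSCs (SD, n = 3 each). Mettl3 held 10.8 ± 0.775% in iNSCs and 14.7 ± 0.626% in SSCs, and Mettl14 4.69 ± 0.317% and 6.43 ± 0.720% in the same order. The share of Wtap was 16.8 ± 1.43% in iNSCs and 12.96 ± 2.01% in SSCs, while that of Zc3h13 was 20.4 ± 0.172% in iNSCs and 20.8 ± 1.00% in SSCs. The groups did not overlap in these shares except for Zc3h13. The FPKM ratio of Wtap to Mettl3 was 1.57 ± 0.220 in iNSCs and 0.879 ± 0.108 in SSCs, with no overlap (exact permutation test, p = 0.10, and 0.20 adjusted over the 4 ratios tested). Its log2 difference of 0.83 lay between 0.72 and 0.93 when each library was left out.

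**Figure D2:**
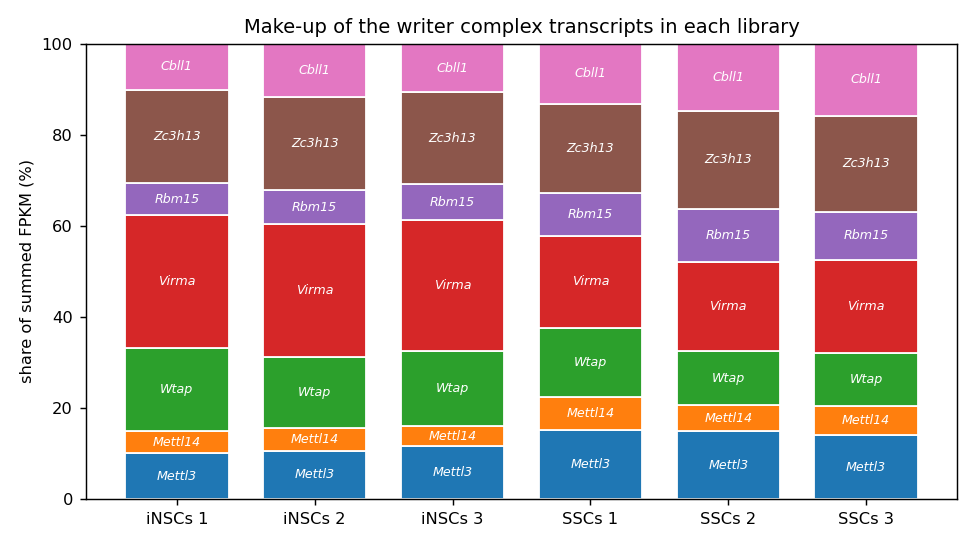
Share (%) of each of the 7 writer complex genes in their summed FPKM, 1 bar per library, with iNSCs on the left and SSCs on the right. The Virma segment is wider in the iNSC libraries (mean 29.1%, against 20.1% in SSCs) and the Mettl3, Mettl14, Rbm15 and Cbll1 segments are narrower.

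Mettl16 (chromosome 11, 74770830 to 74828525, plus strand), the methyltransferase of U6 RNA, had the most negative log2 difference of the members. It had 2.95, 2.76 and 2.35 FPKM in iNSCs replicates 1 to 3, against 9.19, 7.63 and 8.56 FPKM in SSCs replicates 1 to 3. The groups were far apart, at a log2 difference of -1.40 (SE 0.12, 95% interval -1.69 to -1.11, edgeR adjusted p = 4.86e-05). The scaled level in iNSCs was 37.9% of that in SSCs. The FPKM ratio of Mettl16 to Mettl3 was 0.573 ± 0.105 in iNSCs and 0.668 ± 0.119 in SSCs (exact permutation test, p = 0.40, and 0.533 adjusted over the 4 ratios).

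Of the eraser genes, Alkbh5 fell and Fto was not called. Alkbh5 (chromosome 11, 60536381 to 60558512, plus strand), a nuclear m6A demethylase, had 25.0, 27.5 and 27.4 FPKM in iNSCs replicates 1 to 3, against 44.1, 50.7 and 51.9 FPKM in SSCs replicates 1 to 3. It fell without overlap, with a log2 difference of -0.63 (SE 0.12, 95% interval -0.92 to -0.34, edgeR adjusted p = 0.00244). Fto (chromosome 8, 91313525 to 91668439, plus strand), which also demethylates the m6Am next to the cap, had 6.49, 6.01 and 6.15 FPKM in iNSCs, against 6.71, 7.29 and 6.48 FPKM in SSCs. The groups overlapped. The log2 difference was 0.12 (SE 0.10, 95% interval -0.11 to 0.35, edgeR adjusted p = 0.303). With library totals in place of TMM it was -0.14, so its sign depends on the scaling. The FPKM ratio of Fto to Alkbh5 was 0.260, 0.219 and 0.225 in iNSCs replicates 1 to 3, against 0.152, 0.144 and 0.125 in SSCs replicates 1 to 3. All iNSC libraries had the higher ratio (exact permutation test, p = 0.10, the smallest this design allows, and 0.20 adjusted over the 4 ratios).

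**Figure D3:**
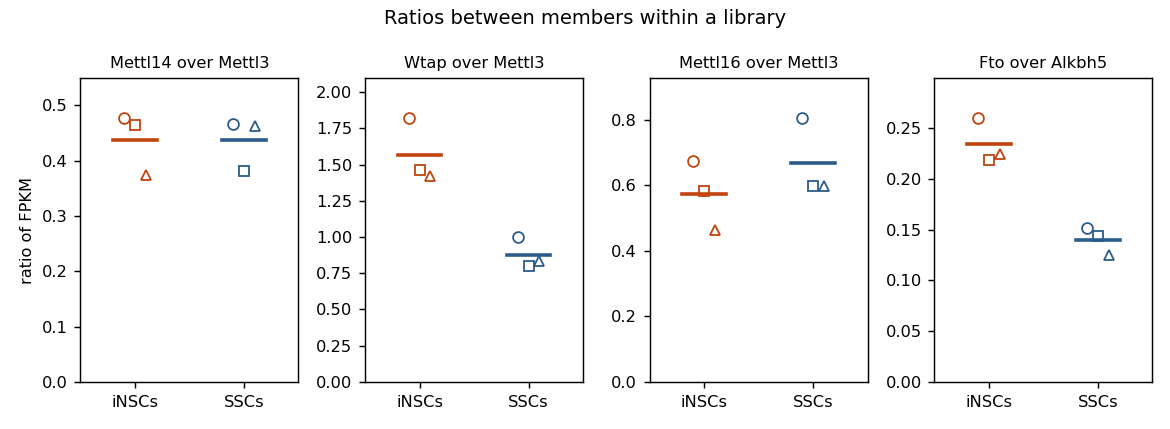
FPKM of 1 member divided by that of another in the same library (linear axes from 0), with iNSCs on the left of each panel and SSCs on the right, 1 symbol per library (circle, square and triangle for replicates 1, 2 and 3) and lines at the group means. The ratio of Mettl14 to Mettl3 has equal means (0.438 in iNSCs and 0.437 in SSCs), whereas Wtap to Mettl3 and Fto to Alkbh5 are higher in all iNSC libraries.

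**Figure D4:**
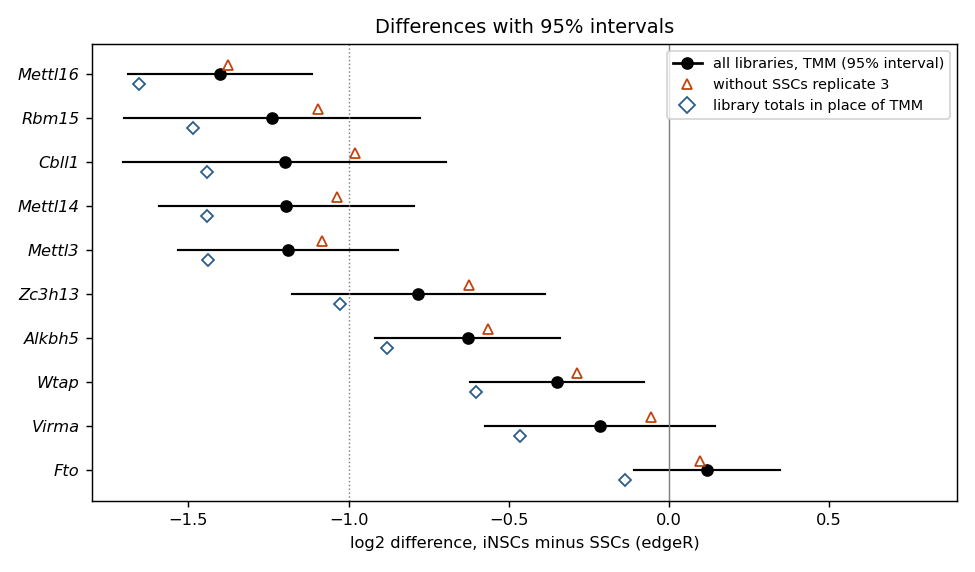
Log2 differences, iNSCs minus SSCs, of the 10 members. Black points and lines are edgeR estimates with 95% intervals from all libraries, orange triangles leave out SSCs replicate 3, blue diamonds use library totals in place of TMM, and the dotted line marks -1. The members run from Mettl16 at -1.40 to Fto at 0.12, and library totals move each of them to lower values.

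In iNSC libraries most neighbouring members were separated. Alkbh5 led at 26.6 ± 1.43 FPKM (SD, n = 3), followed by Virma at 12.8 ± 0.259 FPKM, Zc3h13 at 8.95 ± 0.163 FPKM, Wtap at 7.37 ± 0.548 FPKM and Fto at 6.22 ± 0.247 FPKM. Mettl3 (4.73 ± 0.340 FPKM) and Cbll1 (4.73 ± 0.411 FPKM) were not separated. Rbm15 at 3.29 ± 0.188 FPKM, Mettl16 at 2.69 ± 0.307 FPKM and Mettl14 at 2.06 ± 0.157 FPKM closed the order. Of the 9 pairs of neighbours, 8 had ranges that did not overlap.

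SSC libraries spread more. Alkbh5 (48.9 ± 4.18 FPKM) stood above the rest, and Mettl14 (5.60 ± 0.913 FPKM) came last after Fto (6.83 ± 0.417 FPKM). Between them lay Zc3h13 at 18.3 ± 3.42 FPKM, Virma at 17.6 ± 2.91 FPKM, Cbll1 at 12.8 ± 3.11 FPKM, Mettl3 at 12.8 ± 1.44 FPKM, Wtap at 11.2 ± 0.853 FPKM, Rbm15 at 9.22 ± 1.98 FPKM and Mettl16 at 8.46 ± 0.785 FPKM. Of the 9 pairs of neighbours, 2 had separate ranges, Alkbh5 over Zc3h13 and Mettl16 over Fto. That count was 5 without SSCs replicate 1, 3 without SSCs replicate 2 and 5 without SSCs replicate 3. A range over fewer libraries cannot be wider, so these higher counts do not test the order. Fto took the fifth place in iNSCs and the ninth in SSCs, and Mettl16 the ninth in iNSCs and the eighth in SSCs. The coefficient of variation was larger in SSCs for 9 of the 10 members, at up to 24.3% for Cbll1. Mettl16 was the exception (11.4% in iNSCs and 9.28% in SSCs). The count of 9 was not made over all genes tested. Over all genes tested, SSC libraries correlated at 0.953 to 0.977 with one another and iNSC libraries at 0.991.

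SSCs replicate 3 held the highest SSC value of 8 members, and SSCs replicate 1 the lowest of 6. These counts were not made over all genes tested. Fibroblast and feeder genes summed to 51.9 FPKM in replicate 3 and to 418 FPKM in replicate 1. Dcn and Pdgfra of that list were not lower in replicate 3, and Lum had too few counts in SSCs to tell. Germ cell genes summed to 749 FPKM in replicate 3 and to 634 FPKM in replicate 1. The part of these cells, and of the epithelial and Sertoli cell genes that were higher in iNSCs, in the members' levels was not tested. Without SSCs replicate 3, the log2 differences were -1.38 for Mettl16, -1.09 for Rbm15, -1.08 for Mettl3, -1.04 for Mettl14, -0.98 for Cbll1, -0.62 for Zc3h13, -0.57 for Alkbh5, -0.29 for Wtap, -0.06 for Virma and 0.10 for Fto. The same 8 genes fell in that fit, 4 of them by at least 1 log2 unit.

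The genes whose profile over the 6 libraries lay nearest to that of Mettl3, Fto and Alkbh5 were looked up among 8187 genes of at least 5 FPKM on average, as the Euclidean distance between mean-centred log2 CPM values (counts scaled to library size). For Mettl3 they were Rassf3 (distance 0.0806), Wdr4 (0.0830) and Sugp1 (0.103). Wdr4 had 5.84 ± 0.353 FPKM in iNSCs and 15.8 ± 1.75 FPKM in SSCs. For Fto they were Strn4 (0.0663), Mtmr6 (0.0842) and Wdr11 (0.100), and Strn4 had 15.5 ± 0.465 FPKM in iNSCs and 17.4 ± 0.671 FPKM in SSCs. For Alkbh5 they were Sh3bgrl2 (0.0640), Ap2a1 (0.0696) and Sec61a2 (0.0698). Ap2a1 had 35.96 ± 2.03 FPKM in iNSCs and 66.3 ± 5.39 FPKM in SSCs.

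The other adenosine methyltransferases of RNA and their partners went both ways. Of 6 genes, 3 fell and 1 rose, beside 38.3% and 35.6% of all genes tested. The medians were -0.48 for the list and -0.05 for all genes tested. With library totals in place of TMM 0 rose, and without SSCs replicate 3, 2 rose. Pcif1, which writes m6Am at the cap, had 7.35, 7.24 and 7.14 FPKM in iNSCs replicates 1 to 3, against 12.5, 14.5 and 16.4 FPKM in SSCs replicates 1 to 3 (log2 -0.75, SE 0.14, edgeR adjusted p = 0.00206). The others called, named after their values were seen, were Mettl4 (log2 -0.81) and the ribosomal RNA enzyme genes Mettl5 (log2 -0.54) and Zcchc4 (log2 0.45). Rbm15b, the paralog of Rbm15 that can take its place in the complex, was not called. It had 11.3, 10.3 and 10.8 FPKM in iNSCs, against 8.30, 8.91 and 11.7 FPKM in SSCs, and the groups overlapped (log2 0.41, edgeR adjusted p = 0.0566). Without SSCs replicate 3 it was called, at a log2 difference of 0.59 (edgeR adjusted p = 0.000837), and over all alternatives its adjusted p was between that and 0.339.

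Readers of the mark were mixed. Of 13 genes, 9 fell, 2 of them by at least 1 log2 unit, and 3 rose. Among all genes tested 38.3% fell, 27.6% fell by at least 1 log2 unit and 35.6% rose. The fallers numbered 5 without iNSCs replicate 3, and 6 without iNSCs replicate 1 or replicate 2. With library totals in place of TMM, 5 fell by at least 1 log2 unit, and without SSCs replicate 3, 2 rose by at least 1 log2 unit. Those past 1 log2 unit were Ythdf1 (log2 -1.49) and Igf2bp1 (log2 -2.40), and Ythdf3, a cytoplasmic reader as YTHDF1 is, rose at 20.4, 21.9 and 19.9 FPKM in iNSCs replicates 1 to 3, against 9.89, 13.1 and 16.5 FPKM in SSCs replicates 1 to 3 (log2 0.90, or 1.12 without SSCs replicate 3). The other risers, named after their values were seen, were the stabilising readers Igf2bp2 (log2 0.72) and Igf2bp3 (log2 0.82). The nuclear reader Ythdc1 fell at the edge of 1 log2 unit, to 4.14 ± 0.148 FPKM in iNSCs, against 9.82 ± 1.67 FPKM in SSCs.

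Genes for the supply, use, recycling and transport of S-adenosylmethionine, the methyl donor of the writers, went both ways. Of 12 genes, 3 fell and 3 rose, beside 38.3% and 35.6% of all genes tested. Past 1 log2 unit were 2 of the fallers, and 27.6% of all genes tested fell that far. With library totals in place of TMM, and with limma on FPKM, 8 fell and 3 rose, so the balance depends on the scaling. Without SSCs replicate 1, 5 fell. Mtr, the methionine synthase, had 3.75, 4.56 and 3.69 FPKM in iNSCs, against 26.3, 34.9 and 32.4 FPKM in SSCs (log2 -2.71, SE 0.17, edgeR adjusted p = 1.07e-05). Mat1a, the adult liver form of methionine adenosyltransferase, fell at levels under 1 FPKM in both groups (log2 -2.78). Mat2a, the form used outside the liver and a METTL16 substrate, rose. It had 83.3, 76.0 and 72.9 FPKM in iNSCs, against 55.4, 43.0 and 43.9 FPKM in SSCs (log2 0.96, SE 0.12, edgeR adjusted p = 0.000238). Ahcyl1 also rose (log2 0.85), and Slc25a26, the mitochondrial carrier of the donor, was the third faller (log2 -0.99). Both were named after their values were seen.

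The erasers belong to the AlkB family, and the rest of that family went both ways. Of 7 genes, 3 fell, 1 of them by at least 1 log2 unit, and 2 rose, 1 of them by at least 1 log2 unit. Over all genes tested 38.3% fell and 35.6% rose, and 27.6% and 25.7% did so by at least 1 log2 unit. Those past 1 log2 unit were 2 fallers with library totals in place of TMM, and 2 risers without SSCs replicate 2 or without iNSCs replicate 1. Alkbh2, a DNA repair demethylase, had 12.1, 12.6 and 11.5 FPKM in iNSCs, against 39.7, 32.3 and 26.3 FPKM in SSCs (log2 -1.18, SE 0.16, edgeR adjusted p = 0.000353). Alkbh8, which modifies the wobble uridine of transfer RNA, had 2.57, 2.24 and 2.45 FPKM in iNSCs, against 0.980, 0.600 and 0.620 FPKM in SSCs (log2 1.99, SE 0.21, edgeR adjusted p = 0.000121). Alkbh3, an alkylation repair demethylase, also rose (log2 0.96). Alkbh1 (log2 -0.48) and Alkbh4 (log2 -0.92), named after their values were seen, fell. The list median was 0.00.

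Enzymes that make or use 2-oxoglutarate, the co-substrate of FTO and ALKBH5, were higher in iNSCs. Of 12 genes, 11 rose, 7 of them by at least 1 log2 unit (median 1.06, against -0.05 for all genes tested). Over all genes tested 35.6% rose, and 25.7% rose by at least 1 log2 unit. With library totals in place of TMM, 10 rose, 2 of them by at least 1 log2 unit. The mitochondrial isocitrate dehydrogenase Idh2 had 58.8, 61.0 and 62.2 FPKM in iNSCs, against 6.32, 5.14 and 5.20 FPKM in SSCs (log2 3.70, SE 0.11, edgeR adjusted p = 1.13e-06). Its cytosolic counterpart Idh1 had 154, 148 and 142 FPKM in iNSCs, against 47.1, 30.1 and 25.0 FPKM in SSCs (log2 2.38). No library of either group overlapped the other for these genes. Got2, the mitochondrial aspartate aminotransferase (log2 1.21), and Glud1, the glutamate dehydrogenase (log2 1.13), were the next in size.

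Proteins linked to the writer complex at chromatin or at its transcripts were the last list, called the chromatin list below. Of 5 genes, 4 fell and 1 rose, beside 38.3% and 35.6% of all genes tested. By at least 1 log2 unit 1 fell, against 2 when library totals replaced TMM. A fall of that size was seen in 27.6% of all genes tested. Cebpz, a factor that recruits METTL3 to promoters in human leukaemia cells, had 9.09, 8.66 and 8.38 FPKM in iNSCs, against 33.8, 36.0 and 48.3 FPKM in SSCs (log2 -1.93, SE 0.175, edgeR adjusted p = 5.68e-05). Smad3, an activin and TGF-beta effector that binds the complex in human pluripotent cells, had 42.9, 44.9 and 47.0 FPKM in iNSCs, against 16.3, 13.9 and 12.4 FPKM in SSCs (log2 1.92, SE 0.11, edgeR adjusted p = 8.64e-06). Setd2 (log2 -0.40), Smad2 (log2 -0.49) and Trim28 (log2 -0.81) fell by less and were named after their values were seen. The iNSC medium held SB431542, which blocks receptors upstream of SMAD3, and transcript levels do not measure that activity.

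**Figure D5:**
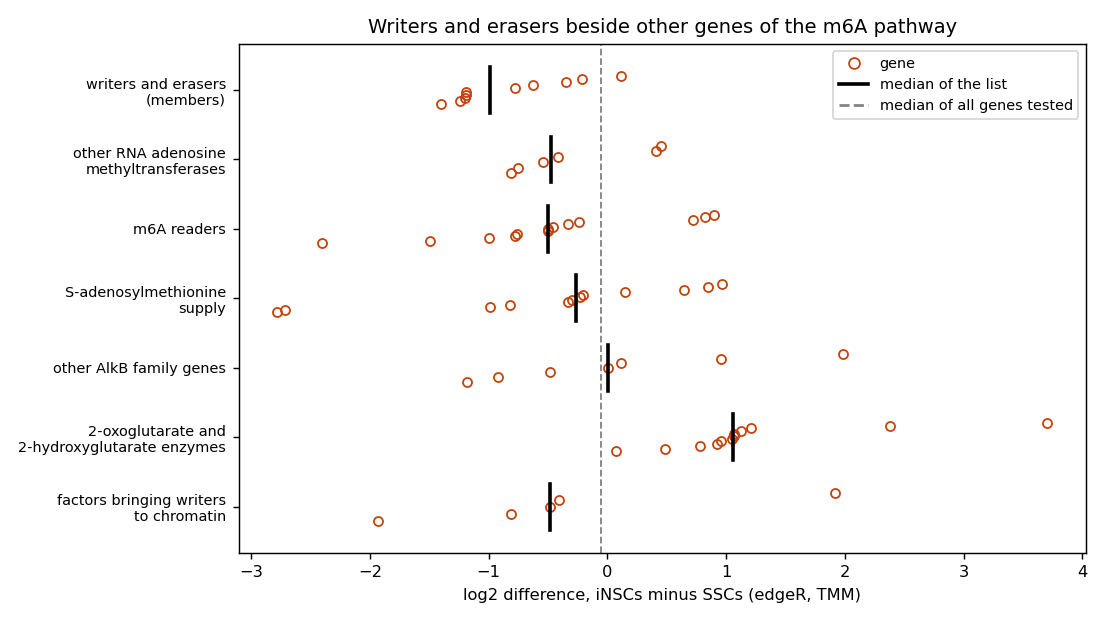
Log2 differences, iNSCs minus SSCs (edgeR with TMM), of the writers and erasers and of the 6 other lists of the m6A pathway. Circles are genes, black lines list medians and the dashed line the median of all genes tested (-0.05). The members' median is -0.99, and that of the 2-oxoglutarate enzymes is 1.06.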

How the data were processed

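Whole-number read counts and FPKM for 55401 Ensembl genes in each library were deposited by the authors in a single table. FPKM recomputed from the deposited counts, exonic lengths and column totals matched 100% of the deposited FPKM within 0.0051. The submitters' processing notes name HISAT2, DESeq2 and mm9. Libraries were made with a stranded kit, per the labels' protocols, but neither the counting tool nor its strand setting is given in the sources used here. Coordinates are the table's, identical to GENCODE M21 on GRCm38 for all 10 members.

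Counts were tested with edgeR 4.0.16 (R 4.3.3): TMM scaling, the default expression filter (10 counts, 15 in total), quasi-likelihood test, two-sided, Benjamini-Hochberg adjusted over 17387 genes. SE is the absolute log2 difference over the square root of F. limma 3.58.1 and DESeq2 1.42.0 were alternatives. The code was tested on simulated data. At this depth 3 counts correspond to 0.149 to 0.166 CPM. Nothing in the labels says that replicates are separate cultures: the p-values cover only the spread among the 6 libraries, and part of it may be technical. Correlations of log2 CPM between libraries were 0.991 among iNSCs, 0.953 to 0.977 among SSCs and 0.702 to 0.754 between groups. Members and lists were chosen with earlier results of these data known. All 10 members are named. From other lists, genes past 1 log2 unit are named (the 4 largest where over 5), with uncalled or smaller changes at 5 FPKM or more optional, and other genes where noted. The values of 1 gene of the methyl donor list are not reported here.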

Additional observations from a re-analysis of the deposited data

How the results depend on the processing

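Over 14 alternatives (other scaling, filters and tests, each library left out, and the replicate block), Mettl3, Mettl14, Rbm15 and Mettl16 fell by at least 1 log2 unit in all. Zc3h13, Cbll1 and Alkbh5 fell in all, by at least 1 log2 unit in 2, 13 and 0. Wtap fell in 10, and its adjusted p with no low-count filter was 0.0870 (edgeR). Virma was called in 4 and Fto in 0. The sign of Fto turned with library totals (-0.14) and with limma on log2(FPKM + 1) (-0.12) or log2(FPKM + 0.1) (-0.13), where no TMM factor is applied.

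Counts in the other lists moved as follows, and where nothing is said of the cause it was not tested. Library totals and limma at a pseudocount of 0.1 gave the following counts alike. Of other adenosine methyltransferase genes, 1 fell by at least 1 log2 unit and 0 rose. Of methyl donor genes, 4 fell by at least 1 log2 unit and 8 at any size. By at least 1 log2 unit, 2 AlkB genes and 2 genes of the chromatin list fell, and 2 of the 2-oxoglutarate enzymes rose. With library totals, 5 readers fell by at least 1 log2 unit. With limma at a pseudocount of 1, 0 of the other adenosine methyltransferases rose. In that fit 1 methyl donor gene fell by at least 1 log2 unit, and 8 fell at any size. Also in that fit, by at least 1 log2 unit, 0 AlkB genes rose, 2 genes of the chromatin list fell and 2 of the 2-oxoglutarate enzymes rose. With no low-count filter, 2 other adenosine methyltransferases rose. With at least 1 FPKM in 3 libraries, 5 methyl donor genes fell.

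Leaving out each library in turn gave these lowest and highest counts. Methyl donor genes: 0 to 1 rose by at least 1 log2 unit and 3 to 5 fell. AlkB genes: 1 to 2 rose by at least 1 log2 unit. Readers: 0 to 2 rose by at least 1 log2 unit and 5 to 9 fell. Other adenosine methyltransferases: 1 to 2 rose. Neighbours with separate ranges in the SSC order, which rest on SSC libraries alone: 3 to 5 when each SSC library was left out, against 2 with all. Ranges over fewer libraries cannot be wider, so this is no test of the order.

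Shared replicate numbers gave no clear sign of pairing. Deviations of same-numbered libraries from their group means correlated at 0.091, 0.050 and -0.015. Some libraries, but not all, correlated best with their own number. With 3 libraries a group such a check is weak, so whether the libraries are paired is not known. With the replicate block, 4661 genes fell and 4510 rose by at least 1 log2 unit, against 4797 and 4470 without it, and 8 members fell, 5 of them by at least 1 log2 unit, with Mettl3 at -1.18.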
